A study of Mus musculus with 20 samples.

Results

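Cadherins and protocadherins in mouse serotonin (5-HT) neurons were described from all genes whose symbol is Cdh followed by a number or begins with Pcdh. There were 95 such genes among the 22556 genes of the stage matrix. Of these, 71 reached 1 FPKM (a level scaled for transcript length and library depth) in at least 1 stage mean or knockout-table group and are described here, and 24 did not. The described genes nearest that floor were Pcdhga1 at 1.01, Pcdha1 at 1.01 and Pcdhgc5 at 1.04 FPKM in their highest group. The genes nearest below it were Pcdh1 at 0.938, Pcdhb12 at 0.924 and Pcdh20 at 0.859 FPKM. The filter for the stage test, at least 1 FPKM in at least 3 of 9 libraries, was passed by 57 members.

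Classical cadherins are calcium-dependent adhesion molecules that bind the same or a related cadherin on a neighbouring cell and connect through catenins to actin. Non-clustered protocadherins of the delta groups are adhesion and signalling molecules, and delta-2 members carry a cytoplasmic motif that binds the WAVE actin regulators. The alpha, beta and gamma protocadherins are encoded in tandem clusters, and each neuron uses a choice of isoforms that serves self-recognition. In serotonergic neurons the alpha isoform Pcdhac2 is known to be required for the even spread of axon terminals.

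EYFP-positive 5-HT neurons of C57BL/6 mice, sorted by fluorescence and marked by ePet-EYFP, in which a Pet-1 enhancer drives the fluorescent protein, were profiled by RNA sequencing. The wild-type groups were E11.5, E15.5 (embryonic days) and postnatal days 1 to 3 (PN), with 3 libraries each from the Clontech kit. Pet-1-/- neurons, which lack the ETS transcription factor encoded by Fev, and wild-type neurons were compared at E15.5 with 3 libraries per genotype from the Clontech kit and 3 per genotype from the NuGEN kit. Myc-tagged Pet-1 was mapped in 1 chromatin immunoprecipitation (ChIP) with 1 input from E12.5 to E14.5 hindbrain of Pet-1-/- embryos that carried ePet-mycPet-1 and ePet-EYFP. Other labels of that sample call it wild type or give E15.5 as the last age.

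Serotonin neuron markers were present at every stage, with 8 of 8 at a mean of 1 FPKM or more. Their sums per library were 1046 to 1427 FPKM at E11.5, 468 to 564 at E15.5 and 485 to 731 in PN, so E11.5 lay above both later stages. Of 8 vascular markers, 0 reached a mean of 1 FPKM at any stage, and their sums lay between 0 and 5.46 FPKM. From E11.5 to PN, summed astrocyte markers went from 3.92 to 8.31 FPKM up to 60.1 to 109, and neural progenitor markers from 186 to 328 FPKM down to 41.3 to 48.5. Microglia and blood markers summed to 7.81 to 14.2 FPKM at E11.5, 19.4 to 65.0 at E15.5 and 110 and 131 in PN libraries a and c, but to 1074 in PN library b. Oligodendrocyte markers were highest at E15.5 (14.6 to 72.0 FPKM), markers of other neurons in PN (19.7 to 70.5 FPKM), and mural markers summed to at most 6.69 FPKM. The part of these markers in the changes described here was not tested. In bulk samples, fewer cells of a type and less RNA per cell cannot be told apart.

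Promoter windows are shown for the 4 members that passed the test in a knockout table, 3 of which also held a mycPet-1 peak. ETS proteins bind around a GGAA core. Each window runs from 250 bases before to 50 bases after the start, 5′ to 3′ on the gene's strand, from RefSeq on GRCm38.p6, and capitals mark GGAA or its reverse complement TTCC. The windows are chr14:79771263-79771562 (minus strand) for Pcdh8, chr3:45378148-45378447 (plus strand) for Pcdh10, chr5:57717831-57718130 (plus strand) for Pcdh7 and chr14:93890620-93890919 (minus strand) for Pcdh9, the lower of that gene's pair of listed windows.
Pcdh8: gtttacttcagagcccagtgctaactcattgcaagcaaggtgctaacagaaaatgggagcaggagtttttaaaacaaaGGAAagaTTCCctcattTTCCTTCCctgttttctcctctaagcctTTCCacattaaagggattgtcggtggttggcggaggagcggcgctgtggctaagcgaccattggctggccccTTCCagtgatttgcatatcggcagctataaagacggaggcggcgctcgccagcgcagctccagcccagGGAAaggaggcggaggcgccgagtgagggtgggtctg
Pcdh10: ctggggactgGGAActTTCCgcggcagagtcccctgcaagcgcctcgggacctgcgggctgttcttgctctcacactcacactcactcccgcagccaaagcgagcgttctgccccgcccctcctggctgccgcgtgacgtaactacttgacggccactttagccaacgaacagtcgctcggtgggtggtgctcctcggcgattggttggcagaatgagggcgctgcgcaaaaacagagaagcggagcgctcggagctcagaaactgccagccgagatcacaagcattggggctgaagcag
Pcdh7: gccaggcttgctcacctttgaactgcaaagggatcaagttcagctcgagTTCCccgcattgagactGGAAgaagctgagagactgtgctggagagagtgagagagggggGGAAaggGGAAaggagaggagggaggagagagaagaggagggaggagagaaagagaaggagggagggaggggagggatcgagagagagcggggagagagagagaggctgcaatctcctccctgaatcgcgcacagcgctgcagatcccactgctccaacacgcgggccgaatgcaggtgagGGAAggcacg
Pcdh9: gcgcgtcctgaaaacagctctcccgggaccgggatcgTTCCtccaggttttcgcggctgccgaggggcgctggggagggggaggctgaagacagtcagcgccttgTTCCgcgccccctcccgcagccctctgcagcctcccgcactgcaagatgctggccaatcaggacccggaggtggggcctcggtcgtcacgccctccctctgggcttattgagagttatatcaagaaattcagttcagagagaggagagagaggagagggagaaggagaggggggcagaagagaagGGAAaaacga
GGAA or TTCC occurred 7 times in the Pcdh8 window, 5 times in that of Pcdh7, 3 times in that of Pcdh9 and 2 times in that of Pcdh10, against a median of 3 over 32851 RefSeq windows. Windows were listed for only 23 of the 95 members, with more than 1 for Cdh7 and Pcdh9. No clustered gene had a window, nor did Cdh2, Cdh4, Cdh11 or Cdh13. At least 1 match lay in 22 of 26 windows of members and in 96.0% of all windows. The longer ETS letters CCGGAA (reverse complement TTCCGG) were in 0 of 26 member windows and in 14.9% of all windows. CCGGAAG (reverse complement CTTCCGG), which contains CCGGAA, was in 0 of 26 and in 8.86% of all. These matches describe letters in a window, not sites of binding.

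Summed cadherin and protocadherin RNA was higher at E15.5 and after birth than at E11.5. Over the 95 genes, summed FPKM was 130, 149 and 274 in the E11.5 libraries a, b and c, 487, 521 and 505 at E15.5, and 479, 463 and 561 in PN. No E11.5 library overlapped a later stage, while the E15.5 values lay inside the PN range. Much of the sum was 1 gene: Cdh13 averaged 63.3 FPKM at E11.5, 213 at E15.5 and 215 in PN, within mean sums of 185, 504 and 501. Genes at 1 FPKM or more numbered 24, 22 and 33 at E11.5, 49 in each E15.5 library, and 48, 41 and 60 in PN. Members listed at 0 made up 31.6% to 50.5% at E11.5, 7.37% to 16.8% at E15.5 and 12.6% to 15.8% in PN. The same shares over all genes of the matrix were 39.3% to 45.5%, 32.1% to 41.3% and 32.3% to 34.6%.

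**Figure D1:**
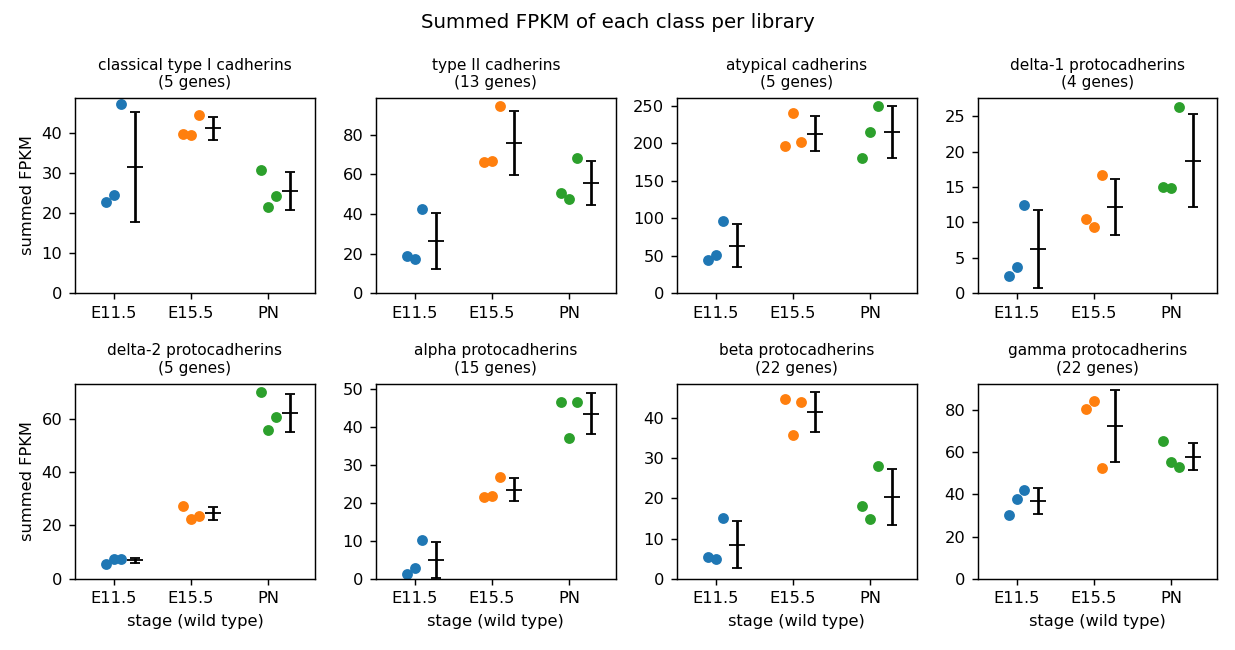
Summed FPKM of each class (linear axis from 0) in each of the 3 wild-type libraries per stage; points are libraries a, b and c from left to right, and the bar beside them is the mean with its SD (n = 3). The delta-2 and alpha sums step up at both intervals, the beta sum is highest at E15.5, and library c is the highest of the E11.5 libraries in each of the 8 panels.

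From E11.5 to E15.5, 28 of the 57 tested members were called higher (49.1%) and 0 lower by limma on log2(FPKM + 1). A call needed an adjusted p (Benjamini-Hochberg) below 0.05 with a change of 1.5-fold or more. Over all 11741 genes tested, 17.4% were called higher and 28.9% in either direction. At an unadjusted p below 0.05, 32 members were higher and 0 lower. Counts at an unadjusted p were made for members only, here and in the other stage comparisons, so they have no share of all genes beside them. The median log2 change of the tested members was 1.10 against 0.11 for all genes tested. The libraries of the stages did not overlap for 32 members, all higher at E15.5, against 24.6% of all genes higher and 17.7% lower. Because the filter admits a gene through the stage where it is high, the means of all 95 members were also counted: 75 were higher at E15.5 and 15 lower. No such count was made over all genes, here or for the later step. The authors' deposited stage table called 8 members in this step, all higher and all among the 28. None of them was clustered, although 36 clustered members were tested there. That table called 21.2% of all genes higher, so members as a set were not called more often there than other genes. With 0 of the 36 clustered members called, the share of the set does not describe the other members, to which all 8 calls belong. Without 1 library at a time, 14 of the 28 calls held in each refit that tested them.

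From E15.5 to PN, limma called 4 members higher (7.02%) and 4 lower (7.02%), against 10.6% and 9.55% of all genes tested. The authors' deposited stage table called 12 of 61 members in this step, 10 higher and 2 lower, against 15.9% and 17.0% of all genes there. Of those 12, limma also called 5 in the same direction, and the other 7 were Cdh8 (lower) and Pcdh7, Pcdh9, Pcdh10, Pcdh19, Cdh12 and Pcdh15 (higher), the last pair not tested by limma. At an unadjusted p below 0.05, 7 were higher and 7 lower. The libraries did not overlap for 9 members higher in PN and 10 lower, against 21.6% and 20.6% of all genes. Of all 95 members, 46 stage means were higher in PN and 45 lower. Each of the 8 calls was lost in at least 1 refit without a library: the count fell to 1, 0 and 3 without E15.5 library a, b or c, and to 3, 1 and 2 without PN library a, b or c. With levels scaled to the same upper quartile, 5 members were called higher and 3 lower, and with levels centred on the median 4 and 5.

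From E11.5 to PN, 23 of 57 members were called higher (40.4%) and 0 lower, against 17.4% of all genes tested higher and 27.4% called in either direction. At an unadjusted p below 0.05 the counts were 29 and 0. Libraries of E11.5 and PN did not overlap for 24 members higher in PN and 1 lower, against 23.6% and 16.7% of all genes. Comparisons between stages share libraries, so these counts are not independent of each other. The later change was tested against the earlier one in the same fit, as the E15.5-to-PN change minus the E11.5-to-E15.5 change. It was lower for 13 members (22.8%) and higher for 0, against 13.0% and 9.62% of all genes, and at an unadjusted p below 0.05 lower for 22 and higher for 0. Both changes use the E15.5 libraries, and without E15.5 library a, b or c the count of 13 fell to 5 in each case.

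**Figure D2:**
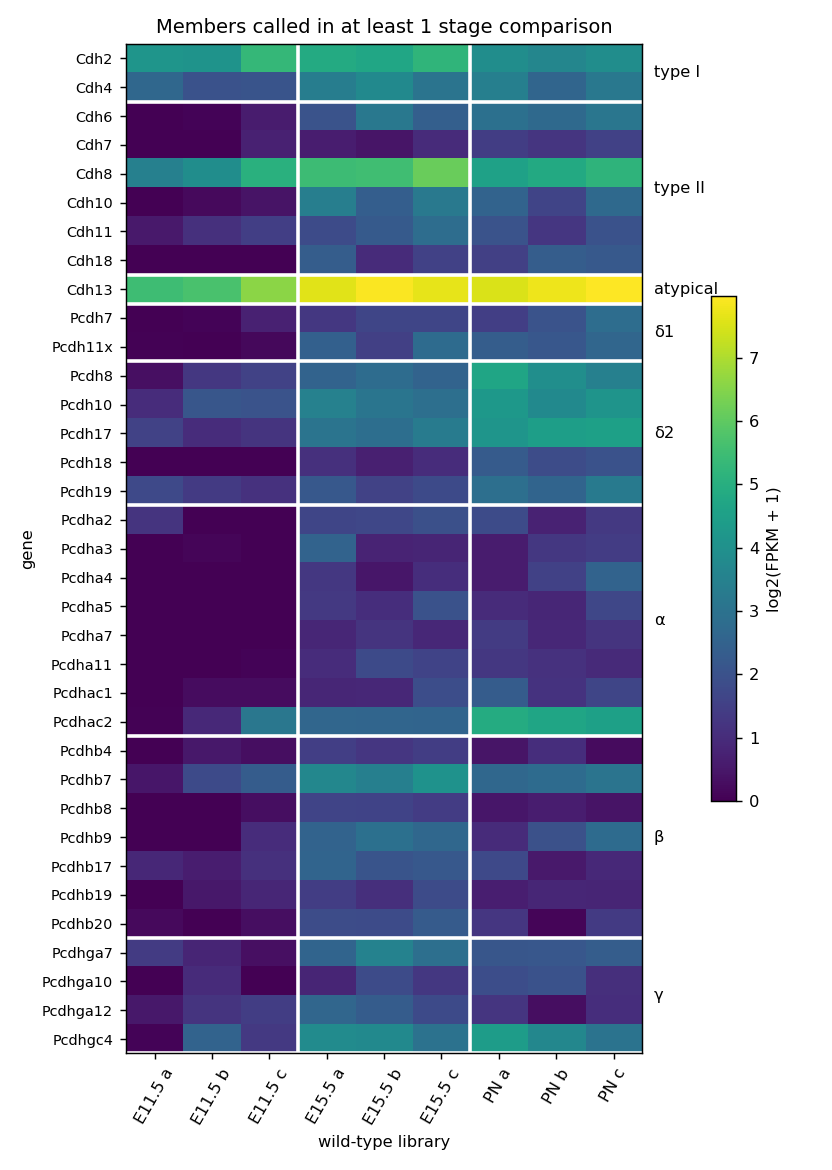
Levels as log2(FPKM + 1), from 0 (dark) to the highest value (bright), of the members called in at least 1 stage comparison, in the 9 wild-type libraries, ordered by class (δ1 and δ2 are the delta groups; α, β and γ the clustered families). Most rows are dark in the 3 E11.5 columns, the delta-2 rows are brightest in PN, and most beta rows are brightest at E15.5.

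Of the 5 classical type I cadherins, 3 were described and tested: Cdh2, Cdh4 and Cdh15. Cdh2 encodes N-cadherin, the main adhesion molecule of neural tissue. It measured 16.8, 16.0 and 38.4 FPKM at E11.5, 28.1, 25.3 and 36.3 at E15.5 and 14.1, 11.503 and 13.9 in PN. All 3 PN libraries lay below all other libraries, while E11.5 library c lay above the E15.5 libraries. The E15.5-to-PN log2 change of Cdh2 was -1.12 (SE 0.35, adjusted p = 0.0415), with means of 29.9 ± 5.72 and 13.1 ± 1.42 FPKM (SD, n = 3). The call was lost without any 1 of the 6 E15.5 and PN libraries, with adjusted p from 0.0687 to 0.132, although the authors' deposited table also called Cdh2 lower (q = 0.000388). Cdh4, or R-cadherin, measured 5.35, 3.03 and 3.19 FPKM at E11.5, 9.30, 12.6 and 7.45 at E15.5 and 9.77, 5.09 and 8.07 in PN. It was higher at E15.5 than at E11.5 with no overlap and a log2 change of 1.16 (SE 0.37, adjusted p = 0.0325), a call lost without E11.5 library b or c or E15.5 library a or b (adjusted p 0.0704 to 0.120). Cdh15, or M-cadherin, known from muscle, measured 0.550, 5.47 and 5.59 FPKM at E11.5, 2.20, 1.42 and 0.756 at E15.5 and 6.83, 4.93 and 2.26 in PN, and was not called between any pair of stages in the fit of all libraries. Without E11.5 library a, its log2 changes were called lower at E15.5 (-1.45, adjusted p = 0.0313) and higher in PN (1.16, adjusted p = 0.0476).

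Type II cadherins pattern nuclei and circuits of the hindbrain and spinal cord, and 9 of 13 were described. From E11.5 to E15.5, 5 of the 8 tested were called higher and 0 lower, beside 17.4% of all genes tested called higher. Cdh8, the highest of the class, measured 10.03, 14.1 and 32.5 FPKM at E11.5, 43.5, 44.8 and 69.6 at E15.5 and 22.7, 27.9 and 35.6 in PN. All E15.5 libraries exceeded all libraries of the other stages. Its log2 change from E11.5 to E15.5 was 1.56 (SE 0.40, adjusted p = 0.0116), lost only without E15.5 library c (adjusted p = 0.0513). From E15.5 to PN its log2 change was -0.84 (SE 0.40, adjusted p = 0.154), which missed the threshold, while the authors' deposited table called Cdh8 lower (log2 fold change -0.87, q = 0.000388). The later change of Cdh8 was lower than the earlier one (-2.40 (SE 0.69, adjusted p = 0.0253)), a call lost without any 1 of the E15.5 libraries or PN library a (adjusted p 0.0538 to 0.122).

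Cdh6 and Cdh10 were near 0 at E11.5 and clearly present later. Cdh6 measured 0, 0.0468 and 0.519 FPKM at E11.5, 3.10, 8.19 and 4.32 at E15.5 and 6.76, 5.68 and 7.67 in PN. Its log2 change was 2.33 (SE 0.38, adjusted p = 0.000992) from E11.5 to E15.5 and 2.71 (SE 0.38, adjusted p = 0.000244) from E11.5 to PN. No E11.5 library overlapped a later one, and E15.5 and PN overlapped. Cdh10 measured 0.0210, 0.145 and 0.337 FPKM at E11.5, 9.58, 4.16 and 8.38 at E15.5 and 4.79, 2.12 and 5.65 in PN. Its log2 change from E11.5 to E15.5 was 2.79 (SE 0.41, adjusted p = 0.000476), and its later change was lower than its earlier one (-3.48 (SE 0.70, adjusted p = 0.00496)). These Cdh6 and Cdh10 calls held without each library in turn.

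The other type II members were expressed at a few FPKM. Cdh18 measured 0, 0.00903 and 0 FPKM at E11.5, 4.13, 0.987 and 1.94 at E15.5 and 1.86, 4.07 and 3.70 in PN, with no overlap between E11.5 and either later stage and a log2 change of 1.63 (SE 0.39, adjusted p = 0.00866) to E15.5. Cdh11, a cadherin also typical of mesenchymal cells, measured 0.454, 1.16 and 1.82 FPKM at E11.5, 2.5004, 3.78 and 6.15 at E15.5 and 3.15, 1.42 and 3.02 in PN. It rose from E11.5 to E15.5 by 1.25 (SE 0.40, adjusted p = 0.0353) on the log2 scale, but not without E11.5 library a or b or E15.5 library b or c (adjusted p 0.0660 to 0.135). The summed mural and meningeal markers reached at most 2.32 FPKM at E11.5 and 6.69 at E15.5. The 1 tested marker among them, Dcn, was also called higher in this step: it measured 0, 0 and 0.761 FPKM at E11.5 and 1.02, 4.51 and 3.06 at E15.5, a log2 change of 1.56 (SE 0.42, adjusted p = 0.016). Both Dcn and Cdh11 were higher in E15.5 libraries b and c than in a, and the part of such cells in the Cdh11 change was not tested. Cdh7 was called only from E11.5 to PN: it measured 0, 0 and 0.666 FPKM at E11.5, 0.547, 0.372 and 0.984 at E15.5 and 1.74, 1.35 and 1.90 in PN, a log2 change of 1.16 (SE 0.32, adjusted p = 0.0156), lost without E11.5 library b (adjusted p = 0.0575). Cdh9 and Cdh22 were tested and not called, and Cdh12 did not pass the filter, at 0, 0.0156 and 0 FPKM at E11.5, 0.319, 0.481 and 0.573 at E15.5 and 1.69, 0.564 and 3.66 in PN, and was called higher from E15.5 to PN in the authors' deposited table (q = 0.0283).

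Cdh13 was the most abundant member in every library. It encodes T-cadherin, a cadherin held by a lipid anchor with no cytoplasmic tail, known in serotonergic neurons of the raphe. It measured 43.8, 50.8 and 95.4 FPKM at E11.5, 197, 240 and 202 at E15.5 and 181, 215 and 250 in PN. The E11.5 libraries lay below all others, with library c above a and b, and E15.5 and PN overlapped. The log2 change was 1.81 (SE 0.30, adjusted p = 0.00102) from E11.5 to E15.5 and 0.01 (SE 0.30) from E15.5 to PN. The 4 other members of this group, Cdh16, Cdh17, Cdh23 and Cdh26, did not reach 1 FPKM in any stage mean or knockout group.

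**Figure D3:**
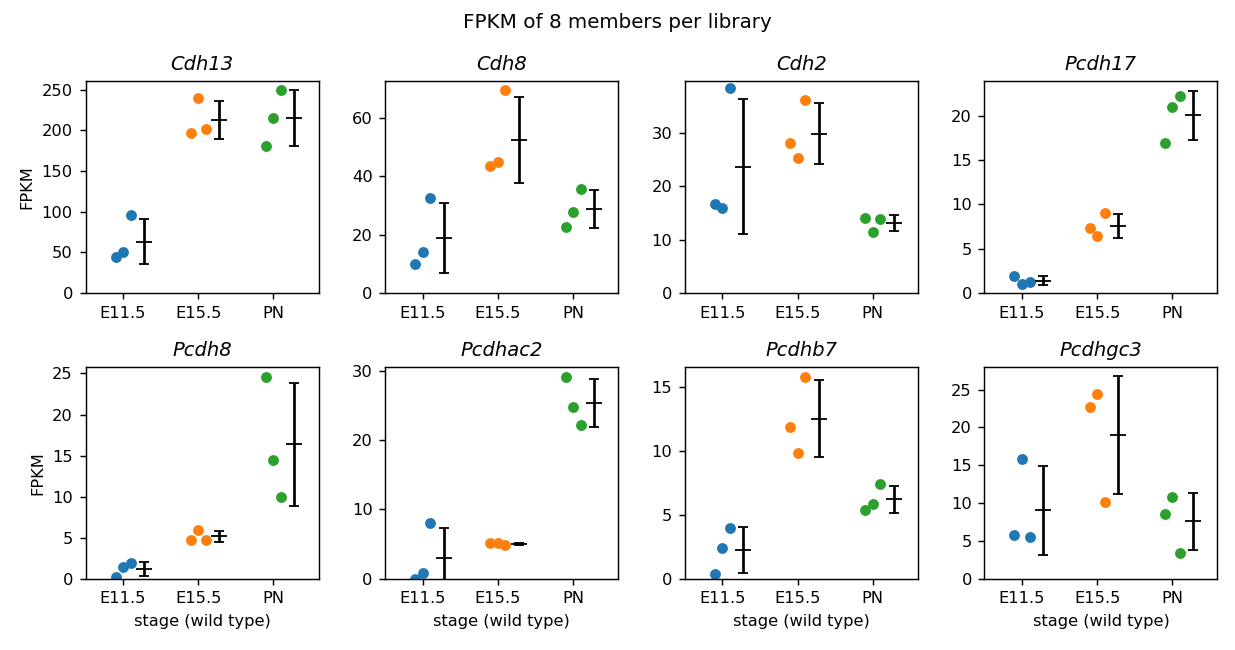
FPKM (linear axes from 0, scaled per gene) of 8 members in each wild-type library; points are libraries a, b and c from left to right and the bar beside them is the mean with its SD (n = 3). Cdh13 steps up once, Cdh8 and Pcdhb7 are highest at E15.5, Cdh2 is lowest in PN, and Pcdh17, Pcdh8 and Pcdhac2 are highest in PN.

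Most delta-2 protocadherins rose at both intervals. All 5 members were expressed and tested: 4 were called higher from E11.5 to E15.5, 3 from E15.5 to PN, and 5 from E11.5 to PN. Of all genes tested, 17.4%, 10.6% and 17.4% were called higher in these comparisons. The summed FPKM of the 5 members was 5.61, 7.36 and 7.60 at E11.5, 27.3, 22.5 and 23.7 at E15.5, and 70.0, 55.8 and 60.6 in PN. The stages did not overlap, and the means were 6.86 ± 1.09, 24.5 ± 2.47 and 62.1 ± 7.20 FPKM (SD, n = 3). For each of the 5 genes every PN library lay above every E15.5 library, while over all genes tested 21.6% showed that.

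Pcdh17, which has known roles in axon extension and presynaptic assembly, measured 1.96, 1.01 and 1.30 FPKM at E11.5, 7.34, 6.39 and 8.99 at E15.5 and 17.0, 21.0 and 22.2 in PN. Its log2 change was 1.83 (SE 0.32, adjusted p = 0.0016) from E11.5 to E15.5, 1.30 (SE 0.32, adjusted p = 0.0155) from E15.5 to PN and 3.13 (SE 0.32, adjusted p = 2.94e-05) over the whole interval. The stages were fully separated. Pcdh8, also called arcadlin and known for regulating N-cadherin at synapses, measured 0.251, 1.43 and 1.97 FPKM at E11.5, 4.76, 5.98 and 4.76 at E15.5 and 24.6, 14.49 and 10.02 in PN. Its log2 change was 1.56 (SE 0.42, adjusted p = 0.0165) in the first interval and 1.41 (SE 0.42, adjusted p = 0.0344) in the second, and PN library a stood far above PN library c. Pcdh10, or OL-protocadherin, known for axon growth and synapse elimination, measured 1.02, 3.37 and 3.13 FPKM at E11.5, 10.5, 7.56 and 6.46 at E15.5 and 17.9, 12.7 and 16.6 in PN. It was called from E11.5 to E15.5 (1.44 (SE 0.38, adjusted p = 0.0142)) and not from E15.5 to PN (0.88 (SE 0.38, adjusted p = 0.121)), although the PN libraries lay above all E15.5 libraries and the authors' deposited table called that second step (q = 0.0155).

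Pcdh18 was almost absent at E11.5 and stayed low. It measured 0.0218, 0 and 0.0122 FPKM at E11.5, 1.13, 0.629 and 1.00 at E15.5 and 3.91, 2.65 and 2.99 in PN, with a log2 change of 1.12 (SE 0.29, adjusted p = 0.0182) from E15.5 to PN. Pcdh19, the X-linked gene mutated in a female-limited epilepsy, measured 2.35, 1.55 and 1.19 FPKM at E11.5, 3.57, 1.98 and 2.46 at E15.5 and 6.55, 4.92 and 8.76 in PN. In the fit of all libraries it was called only from E11.5 to PN, with a log2 change of 1.51 (SE 0.36, adjusted p = 0.00716). Its E15.5-to-PN change was 1.07 (SE 0.36, adjusted p = 0.0522), which passed with levels scaled to the same upper quartile (adjusted p = 0.0469) and without E11.5 library a or c (0.0367 and 0.0492), and the authors' deposited table called that step higher (log2 fold change 1.34, q = 0.000388). All 5 calls of the class over the whole interval held without each library in turn. The E15.5-to-PN calls did not: Pcdh17 lost its call without E15.5 library a or b or PN library b or c (adjusted p 0.0518 to 0.0591), Pcdh18 without E15.5 library b or PN library a (0.0711 and 0.0818), and Pcdh8 without any 1 of the E15.5 libraries or PN library a or b (0.0673 to 0.150). For the first step Pcdh10 lost its call without E15.5 library a (0.0609), Pcdh8 without E15.5 library b (0.0566), and Pcdh18 without any 1 of the E11.5 libraries or E15.5 library a or c (0.0620 to 0.0918).

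Of the 4 delta-1 protocadherins, Pcdh7, Pcdh9 and Pcdh11x were tested, and the group means of Pcdh1 stayed under 1 FPKM. Pcdh11x, an X-linked adhesion molecule, measured 0.0312, 0 and 0.128 FPKM at E11.5, 4.39, 1.83 and 5.86 at E15.5 and 4.07, 3.45 and 5.23 in PN. It was nearly silent in the E11.5 libraries and separated from both later stages, with a log2 change of 2.16 (SE 0.38, adjusted p = 0.00139) to E15.5. Pcdh7, or BH-protocadherin, measured 0.00779, 0.0611 and 0.662 FPKM at E11.5, 1.44, 2.15 and 2.16 at E15.5 and 1.81, 3.09 and 6.16 in PN. Its log2 change of 1.26 (SE 0.39, adjusted p = 0.0303) to E15.5 was lost without E11.5 library a or b or E15.5 library b or c (adjusted p 0.0771 to 0.0881), whereas that to PN (1.84 (SE 0.39, adjusted p = 0.00377)) held without each library. The authors' deposited table called Pcdh7 higher from E15.5 to PN as well (log2 fold change 0.95, q = 0.0494). Pcdh9, broadly expressed in developing brain, measured 2.26, 3.26 and 10.9 FPKM at E11.5, 4.22, 4.61 and 7.96 at E15.5 and 8.37, 7.43 and 13.9 in PN. Its E11.5 libraries overlapped the later stages because of library c, and E15.5 library c lay above PN library b. Pcdh9 was not called in the fit of all libraries, and without E11.5 library c its log2 change from E11.5 to PN was 1.502 (adjusted p = 0.0190). The authors' deposited table called Pcdh9 higher from E15.5 to PN (log2 fold change 0.84, q = 0.0125). Of the remaining non-clustered genes, Pcdh15, part of the hair cell tip link, reached 1 FPKM only in PN (1.63, 0.860 and 2.66 FPKM), where the authors' deposited table called it higher than at E15.5 (q = 0.00451), and Pcdh12 and Pcdh20 did not.

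The clustered protocadherins lie side by side on chromosome 18, and 49 of 59 were described and 37 tested. The isoforms of the alpha family share their last exons, as do those of the gamma family, and beta genes are close paralogs, so how reads were divided among them is uncertain. From E11.5 to E15.5, 15 clustered genes were called higher and 0 lower by limma, but 0 were called by the authors' deposited table, in which 1 of 36 clustered genes had an unadjusted p below 0.05. The 15 were 5 of 12 tested alpha, 7 of 10 beta and 3 of 15 gamma genes, beside 17.4% of all genes tested called higher by limma. The gamma count was near that share. Family sums are given beside single isoforms, but FPKM divides by the length of each gene model, so the sums too depend on how reads were divided. The alpha sum includes Pcdha4-g, a model over the whole clustered locus, at 0 to 1.34 FPKM per library.

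The summed alpha family was higher at each later stage, and Pcdhac2 was the only alpha gene called between E15.5 and PN. Summed FPKM of the 15 alpha genes was 1.35, 2.96 and 10.2 at E11.5, 21.6, 21.7 and 26.8 at E15.5, and 46.6, 37.2 and 46.6 in PN, with no overlap between stages. Pcdhac2 measured 0.0254, 0.888 and 7.99 FPKM at E11.5, 5.20, 5.10 and 4.89 at E15.5 and 29.1, 24.8 and 22.2 in PN. It made up 18.2% to 24.1% of the alpha sum at E15.5 and 47.6% to 66.8% in PN. Its log2 change was 2.11 (SE 0.61, adjusted p = 0.0288) from E15.5 to PN, and the authors' deposited table also called it (log2 fold change 2.33, q = 0.0411). The PN libraries were well above the rest, yet the limma call was lost without any 1 of the E15.5 or PN libraries (adjusted p 0.0545 to 0.0912).

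E11.5 library c, at 7.99 FPKM, was above the E15.5 libraries for Pcdhac2, so the first step was not called (1.23 (SE 0.61, adjusted p = 0.15)). Without it that log2 change was 2.12 (adjusted p = 0.00214). The call from E11.5 to PN (3.34 (SE 0.61, adjusted p = 0.00147)) held without each library. Of the other alpha genes, Pcdha2, Pcdha3, Pcdha5, Pcdha7 and Pcdha11 were called higher from E11.5 to E15.5, with log2 changes of 0.99 to 1.45. The calls of Pcdha5 and Pcdha11 held without each library, that of Pcdha2 was lost in 5 of 9 refits without a library (adjusted p 0.0513 to 0.0825), and of the 6 refits that tested them Pcdha3 was lost in 3 (0.0712 to 0.0735) and Pcdha7 in 1 (0.0515). Pcdha3 measured 4.76, 0.751 and 0.763 FPKM at E15.5, where library a alone was high. Pcdha5 and Pcdha7 were listed at 0 in all E11.5 libraries, and at E15.5 they measured 1.49, 1.04 and 3.04 FPKM and 0.820, 1.31 and 0.862 FPKM. Of the 15 alpha stage means, 9 were lower in PN than at E15.5. Pcdhac1, the other C-type alpha isoform, measured 0, 0.205 and 0.213 FPKM at E11.5, 0.799, 0.852 and 2.72 at E15.5 and 4.02, 1.26 and 2.16 in PN, with a log2 change of 1.54 (SE 0.39, adjusted p = 0.0108) from E11.5 to PN that was lost without PN library a (adjusted p = 0.0527).

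The beta family was highest at E15.5. Its 22 genes summed to 5.39, 4.80 and 15.1 FPKM at E11.5, 44.6, 35.7 and 43.9 at E15.5, and 18.1, 14.7 and 28.1 in PN, with E15.5 above every library of the other stages. Pcdhb7, the leading beta gene in 8 of the 9 libraries, measured 0.402, 2.42 and 3.95 FPKM at E11.5, 11.8, 9.84 and 15.8 at E15.5 and 5.36, 5.84 and 7.38 in PN. Its log2 change was 2.21 (SE 0.45, adjusted p = 0.00352) up to E15.5, and its later change was lower than its earlier one (-3.10 (SE 0.77, adjusted p = 0.0141)). That difference was lost without E15.5 library a or c (adjusted p 0.0517 and 0.0730). Of the 13 members whose later change was lower than the earlier, 6 were beta genes: Pcdhb4, Pcdhb7, Pcdhb8, Pcdhb9, Pcdhb17 and Pcdhb20.

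Pcdhb8 and Pcdhb17 were called higher at the first step and lower at the second. Pcdhb8 measured 0, 0 and 0.218 FPKM at E11.5, 2.10, 2.07 and 1.65 at E15.5 and 0.392, 0.559 and 0.353 in PN, with log2 changes of 1.46 (SE 0.27, adjusted p = 0.00222) and -1.03 (SE 0.27, adjusted p = 0.0195). Both outer stages lay below all E15.5 libraries. Pcdhb17 measured 0.855, 0.547 and 1.154 FPKM at E11.5, 4.92, 3.24 and 3.55 at E15.5 and 2.35, 0.449 and 0.883 in PN, with log2 changes of 1.404 (SE 0.37, adjusted p = 0.0144) and -1.22 (SE 0.37, adjusted p = 0.0371). Both second-step calls were lost without some libraries: for Pcdhb8 without any 1 PN library (adjusted p 0.0511 to 0.0762), and for Pcdhb17 without any 1 E15.5 library or PN library b or c (0.0660 to 0.150). The first step of Pcdhb17 was lost without E15.5 library a (0.0519). For Pcdhb8, the lower later change held in each refit that tested it (-2.49 (SE 0.47, adjusted p = 0.00349)).

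Pcdhb9 and Pcdhb20 were called in the first step and not in the second. Pcdhb9 measured 0, 0 and 1.03 FPKM at E11.5, 4.86, 6.74 and 5.35 at E15.5 and 0.958, 2.91 and 5.88 in PN, with log2 changes of 2.38 (SE 0.47, adjusted p = 0.00298) and -0.82 (SE 0.47, adjusted p = 0.239). Its PN libraries ranged from the E11.5 level to the E15.5 level. Pcdhb20 measured 0.144, 0.00639 and 0.233 FPKM at E11.5, 2.64, 2.51 and 3.91 at E15.5 and 1.38, 0.0751 and 1.56 in PN, with log2 changes of 1.82 (SE 0.37, adjusted p = 0.00355) and -1.09 (SE 0.37, adjusted p = 0.0551). For both genes the later change was lower than the earlier (-3.20 and -2.91 on the log2 scale), which held without each library for Pcdhb20 and was lost for Pcdhb9 without E15.5 library b or c (adjusted p 0.0526 and 0.0611).

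Gamma protocadherins were already present at E11.5. The 22 genes summed to 30.3, 37.9 and 42.3 FPKM at E11.5, 80.5, 84.2 and 52.7 at E15.5, and 65.5, 55.2 and 53.3 in PN. E11.5 lay below both later stages, which overlapped. Pcdhgc3, a constitutive C-type isoform that acts in dendrite arborisation, measured 5.82, 15.9 and 5.51 FPKM at E11.5, 22.7, 24.4 and 10.1 at E15.5 and 8.52, 10.8 and 3.44 in PN, and no stage pair was called. Pcdhgc4, a C-type isoform known for neuronal survival, measured 0.0548, 4.84 and 1.49 FPKM at E11.5, 13.4, 12.9 and 7.01 at E15.5 and 20.1, 12.02 and 7.15 in PN. Its log2 change was 2.23 (SE 0.57, adjusted p = 0.0121) to E15.5 and 2.40 (SE 0.57, adjusted p = 0.00753) to PN, with E11.5 below all later libraries. Pcdhgb6 was the leading gamma gene in E11.5 library c (13.2 FPKM) and in PN library c (9.88 FPKM), and Pcdhgc3 or Pcdhgc4 led in the other 7.

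Pcdhga7 and Pcdhga12 rose at the first step. Pcdhga7 measured 1.63, 0.776 and 0.256 FPKM at E11.5, 4.88, 10.6 and 6.60 at E15.5 and 3.39, 3.48 and 4.10 in PN, with a log2 change of 2.16 (SE 0.39, adjusted p = 0.00175). Pcdhga12 measured 0.425, 1.31 and 1.72 FPKM at E11.5, 5.19, 4.04 and 2.48 at E15.5 and 1.37, 0.229 and 1.08 in PN. It was called higher at the first step (1.20 (SE 0.39, adjusted p = 0.0376)) and lower at the second (-1.39 (SE 0.39, adjusted p = 0.0269)), with E15.5 above both other stages. These Pcdhga12 calls were lost without E15.5 library a or b, the first also without E11.5 library a or b and the second without PN library b or c (adjusted p 0.0504 to 0.118).

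Across the Pet-1 genotypes, few members differed. The targeted gene itself fell from 31.1 to 0.422 FPKM in the authors' deposited Clontech table and from 34.9 to 0.308 in the NuGEN table. These tables give 1 value per group with no libraries, so no spread can be shown, and levels were not compared between kits. The Clontech wild-type libraries are those of the E15.5 stage group. A member counted as called where the authors' q was below 0.05, the ratio was 1.5-fold or more and either group reached 1 FPKM.

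By the authors' Cuffdiff values 0 of 59 members tested were called with the Clontech kit, against 0.960% of all genes higher and 1.85% lower in knockout. Of those 59 members, 6 had an unadjusted p below 0.05, against 1844 of all 10939 genes tested. The lowest q was that of Cdh8, at 51.2 in wild type and 34.8 FPKM in knockout (q = 0.0680). In the NuGEN table Cdh8 was 64.7 in wild type and 48.9 FPKM in knockout (q = 0.248). With the NuGEN kit 3 of 67 members were called higher (4.48%) and 1 lower (1.49%), against 8.18% and 4.56% of all genes. As a set, members were therefore called no more often than other genes in either table. Clustered genes, of which 0 were called, were 40 of the 59 and 47 of the 67 members tested. The low share of the set therefore does not describe the other members.

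The 4 members called in the NuGEN table were all delta protocadherins. In the authors' deposited NuGEN table Pcdh8 was 4.66 in wild type and 9.17 FPKM in knockout, a 1.97-fold rise (q = 0.00352). In the Clontech table it was 4.75 in wild type and 7.32 FPKM in knockout, with q = 0.224. Pcdh10 was 7.06 in wild type and 12.02 FPKM in knockout in the authors' NuGEN table (q = 0.0257) and 7.77 in wild type and 7.95 FPKM in knockout in the Clontech table (q = 0.976). Both genes are delta-2 members, and Pcdh8 pointed the same way in both tables while Pcdh10 was nearly level with the Clontech kit.

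Pcdh7 was 1.81 in wild type and 3.07 FPKM in knockout in the authors' NuGEN table (q = 0.0326) and 1.92 in wild type and 2.41 FPKM in knockout in the Clontech table (q = 0.626). Pcdh9 was 15.9 in wild type and 9.83 FPKM in knockout in the authors' NuGEN table (q = 0.0342), and 6.05 in wild type and 7.13 FPKM in knockout in the Clontech table (q = 0.663). The Pcdh9 tables thus point in opposite directions. Pcdh20, a non-clustered protocadherin, stayed under the floor of 1 FPKM, at 0.859 in wild type and 0.285 FPKM in knockout in the authors' NuGEN table (q = 0.0120). At q below 0.01, Pcdh8 alone remained called.

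**Figure D4:**
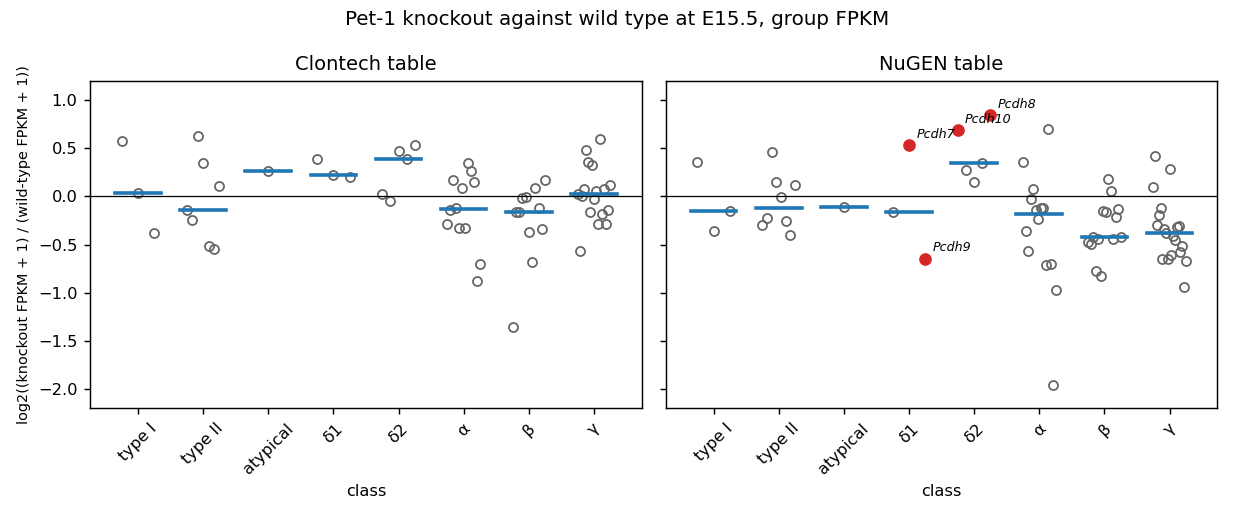
Knockout against wild type at E15.5 as log2((knockout FPKM + 1)/(wild-type FPKM + 1)) from the authors' deposited group values, for the members tested in the Clontech (left) and NuGEN (right) tables by class; filled points were called, open points were not, and blue lines are class medians. The called delta points appear only in the NuGEN panel, and its clustered families sit mostly below 0.

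Delta-2 members lay higher in knockout in 5 of 5 cases in the authors' NuGEN table and in 4 of 5 in the Clontech table, Pcdh17 being the exception at 7.96 in wild type and 7.69 FPKM in knockout. Of all genes tested, 57.3% lay higher in knockout with NuGEN and 47.3% with Clontech. Pcdh18 (q = 0.247) and Pcdh19 (q = 0.239) had higher Clontech values in knockout without passing the threshold. The clustered genes leaned the other way in the NuGEN table, where 39 of 47 had lower values in knockout, against 42.7% of all genes tested, while 23 of 40 did with the Clontech kit, against 52.7%. None of these clustered genes was called in the authors' tables, where the lowest unadjusted p was 0.232 with NuGEN and 0.384 with Clontech. Their sums were 198 in wild type and 137 FPKM in knockout for NuGEN, and 138 and 128 FPKM for Clontech.

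Pcdhac2 was 6.26 in wild type and 2.69 FPKM in knockout in the authors' NuGEN table (q = 0.69) and 5.18 in wild type and 2.79 FPKM in knockout in the Clontech table (q = 0.744). Its neighbour Pcdhac1 was the lowest point of the NuGEN panel, at 5.22 in wild type and 0.595 FPKM in knockout in the authors' NuGEN table, and still q = 0.543. Over the 58 members tested in both tables, 10 lay higher in knockout in both, 25 lower in both and 23 on opposite sides (17.2%, 43.1% and 39.7%). Over all genes tested in both tables these shares were 31.1%, 25.9% and 43.0%. Cdh13 was 187 in wild type and 225 FPKM in knockout in the authors' Clontech table and 154 in wild type and 143 FPKM in knockout in the NuGEN table, and was not called.

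A mycPet-1 peak of the authors' deposited list lay in the gene span or within 5 kb before the start for 31 of 95 members, against 23.5% of 22294 RefSeq genes. Of the 31, 20 were gamma genes whose overlapping models share 3 peaks, so only 14 distinct peaks stood behind the count. The 11 others were Cdh2, Cdh4, Cdh15, Cdh20, Cdh22, Cdh23, Pcdh1, Pcdh7, Pcdh8, Pcdh10 and Pcdha4-g, the last a model over the whole clustered locus that holds the gamma peaks. For genes without a listed strand the 5 kb was applied at both ends. Of the 23 members with a listed strand, 4 (Cdh20, Pcdh7, Pcdh8 and Pcdh10) had a peak within 5 kb of the start, against 22.4% of genes.

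The strongest peak was at Pcdh8, on chr14:79768129-79771114, with an authors' score of 428.8 that exceeded 94.99% of the 4934 peaks. It covered most of the gene on chr14:79766772-79771312 and came within 198 bases of its 5′ end, beside the printed promoter window. At Pcdh7 the peak on chr5:57718849-57720483 (score 135.07) began 768 bases after the start used for the window. At Pcdh10 the peak on chr3:45379977-45381206 (score 102.33) began 1579 bases after the start. Pcdh7, Pcdh8 and Pcdh10 were thus among both the NuGEN calls and the genes with a peak, and Pcdh9 held no peak. None of these genes was called in the Clontech table, and 23.5% of all RefSeq genes held a peak. Whether the peaks bear on the knockout values was not tested. The strongest gamma peak (score 164.66) spanned the lower end of Pcdhgc3, and Cdh2 held a peak of score 89.4 that ended 140 bases inside the upper end of the gene. With 1 ChIP sample there is no replicate of any peak.

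Catenins link cadherins to actin. Of 12 catenins and partners tested with limma, 4 were called lower from E11.5 to E15.5 (Ctnna1, Ctnnb1, Arvcf and Mllt4) and the other 8 were not called, beside 1348 lower and 2046 higher of the 11741 genes tested. From E15.5 to PN 2 were called higher and 1 lower, beside 1249 and 1121 of all genes tested. Over the whole interval 1 was called higher and 4 lower, beside 2038 and 1177. The list median for the first step was -0.92 against 0.11 for all genes tested. Arvcf, a p120-catenin relative, measured 18.1, 34.3 and 19.3 FPKM at E11.5, 4.23, 7.20 and 4.58 at E15.5 and 7.62, 5.03 and 4.40 in PN, a log2 change of -1.95 (SE 0.37, adjusted p = 0.00228) to E15.5. Ctnna1, or alpha-E-catenin, measured 20.9, 18.5 and 27.1 FPKM at E11.5, 6.52, 9.31 and 8.65 at E15.5 and 4.37, 1.91 and 2.10 in PN and fell at both steps, with log2 changes of -1.34 (SE 0.35, adjusted p = 0.0137) and -1.32 (SE 0.35, adjusted p = 0.0204). Ctnnd2, the neuronal delta-catenin, measured 11.4, 5.91 and 10.2 FPKM at E11.5, 14.7, 14.7 and 10.3 at E15.5 and 36.6, 35.7 and 22.9 in PN, a log2 change of 1.19 (SE 0.34, adjusted p = 0.0274) from E15.5 to PN. Ctnnb1, or beta-catenin, measured 65.7, 52.9 and 84.7 FPKM at E11.5, 27.2, 27.5 and 30.9 at E15.5 and 20.3, 25.8 and 25.1 in PN, a log2 change of -1.20 (SE 0.27, adjusted p = 0.00638). Ctnna2, the neuronal alpha-catenin, was lower in knockout in the authors' NuGEN table (51.4 to 30.03 FPKM, q = 0.0329) and not called in the Clontech table (20.2 to 17.1 FPKM). The summed progenitor markers were 186 to 328 FPKM at E11.5 and 61.2 to 132 at E15.5, and their part in these changes was not tested.

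Of 8 tested genes of the wider cadherin superfamily, 1 was called higher and 1 lower from E11.5 to E15.5, and 3 were called higher from E15.5 to PN. Of all 11741 genes tested, 2046 were called higher and 1348 lower in the first step, and 1249 higher in the second. Clstn3, a calsyntenin of the postsynaptic membrane, measured 1.47, 1.96 and 5.54 FPKM at E11.5, 16.6, 23.7 and 12.2 at E15.5 and 22.3, 17.1 and 13.9 in PN, with a log2 change of 2.30 (SE 0.41, adjusted p = 0.00175). It was lower in knockout in the authors' NuGEN table (62.9 to 36.9 FPKM, q = 0.0185) and not called in the Clontech table (16.5 to 21.5 FPKM). Celsr2, a planar polarity cadherin, measured 49.0, 36.6 and 27.4 FPKM at E11.5, 6.76, 9.96 and 4.19 at E15.5 and 12.3, 6.84 and 7.75 in PN, with a log2 change of -2.31 (SE 0.37, adjusted p = 0.000932). Ret, a receptor tyrosine kinase with cadherin-like domains, measured 0, 0.0353 and 0.0294 FPKM at E11.5, 0.334, 1.25 and 0.573 at E15.5 and 4.31, 3.08 and 2.39 in PN, with a log2 change of 1.32 (SE 0.32, adjusted p = 0.0128) from E15.5 to PN. Clstn3 and Celsr2 each separated E11.5 from the later stages, in opposite directions.

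Among 3 nectins tested, Pvrl3 was not called, Pvrl2 was lower at E15.5 (-1.85 (SE 0.32, adjusted p = 0.00143)) and higher again in PN (1.77 (SE 0.32, adjusted p = 0.00315)), and Pvrl1 was higher in knockout in the authors' Clontech table (2.22 to 4.57 FPKM, q = 0.0383). Of 8 WAVE complex genes, Wasf3 was the only one called between stages, higher from E11.5 to PN (1.36 (SE 0.34, adjusted p = 0.0105)), beside log2 changes of -1.01 (SE 0.39, adjusted p = 0.0738) for Cyfip1 over the same interval and 0.98 (SE 0.47, adjusted p = 0.139) for Abi1 from E11.5 to E15.5, and Cyfip2 was higher in knockout in the authors' Clontech table (10.9 to 17.2 FPKM, q = 0.0303). Of 10 genes for cadherin cleavage and for regulation of the protocadherin clusters, 2 were called higher from E11.5 to E15.5, and 4 were called lower from E15.5 to PN. Over all genes tested, 17.4% were called higher in the first step and 9.55% lower in the second. Ncstn, or nicastrin, measured 12.1, 21.9 and 22.4 FPKM at E11.5, 67.0, 52.8 and 40.1 at E15.5 and 11.48, 11.2 and 12.8 in PN, with log2 changes of 1.48 (SE 0.32, adjusted p = 0.0051) and -2.05 (SE 0.32, adjusted p = 0.00134). Ctcf, the insulator protein that sets isoform choice in the clusters, measured 7.60, 10.5 and 7.85 FPKM at E11.5, 10.7, 11.7 and 16.6 at E15.5 and 4.83, 3.63 and 6.63 in PN and fell after E15.5 (-1.22 (SE 0.34, adjusted p = 0.0239)). Smc3, a cohesin subunit that acts with it, measured 21.1, 23.3 and 16.5 FPKM at E11.5, 28.4, 33.4 and 63.6 at E15.5 and 11.2, 14.6 and 22.3 in PN and also fell (-1.29 (SE 0.36, adjusted p = 0.0259)).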

How the data were processed

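Messenger RNA of sorted 5-HT neurons was sequenced in 18 of the series' 20 samples, and the other 2 were 1 ChIP and 1 input. The members, classes and gene lists were chosen with earlier results of these data known. The authors deposited FPKM for each stage library and, for the knockout, for each genotype group, and the group tables have Cuffdiff's columns per the file headers. The deposited log2 fold changes are ratios of group FPKM, and the deposited p-value and q-value columns were used as given. Peaks carry the authors' deposited score, and the list is named as mm10, 1 of the builds in the submitters' processing notes. Per the submitters' processing notes, TopHat2, Cufflinks and BWA were used without a stated version, and MACS 1.4.2. Read depth is unknown, so no counting error can be given, and the limma p-values measure only the spread between these samples, which may be technical.

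Stage matrix columns name a stage but neither a replicate nor a kit, so libraries are lettered a to c in column order, and 3 columns matching no sample were not used. Over 4744 genes the Clontech wild-type group value was 0.980 times the mean of the E15.5 columns at the median (5% to 95% of genes: 0.838 to 1.14). Correlations of log2 values were 0.903 to 0.966 within and 0.794 to 0.888 between stages. Library sums were 630091 to 919994 FPKM, and 14 genes with a failed estimate were left out.

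Stages were tested with limma 3.58.1 (R 4.3.3) on log2(FPKM + 1), which understates changes of low genes, in 1 fit of 9 libraries with a mean-variance trend and 6 residual degrees of freedom. Adjustment was over all 11741 genes that reached 1 FPKM in 3 or more libraries. Knockout calls used the authors' q below 0.05, at least 1.5-fold and 1 FPKM in a group. Peaks were matched to RefSeq GRCm38.p6 spans, found for all 95 members (93 by symbol, the others by synonym) and with a strand for 23. Values per library are given for members called in a comparison or among the 5 highest by mean FPKM, and most clustered isoforms as counts and sums. Named list genes were called in a knockout table or had 1 of the 3 largest absolute log2 changes of a list in any stage comparison, 1 such gene is not reported here, and Ctnnb1 and Ctcf were added after their values were seen. Alternatives were a pseudocount of 0.1 FPKM, no filter, other scalings, the authors' q, each library left out, a stricter q and other peak windows.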

Additional observations from a re-analysis of the deposited data

How the results depend on the processing

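Of 72 member results called between stages, 30 kept direction and call in every setting that tested them, and 0 reversed. No paired analysis was possible because the matrix columns carry no replicate number of the labels and the knockout tables hold group values only. From E11.5 to E15.5, the 28 calls became 8 by the authors' deposited q-value, and 19 to 27 without 1 library. From E15.5 to PN, the 8 calls became 2 with a pseudocount of 0.1 FPKM, 3 with no filter on low values, and 0 to 10 without 1 library, while the authors' q gave 12 (10 higher, 2 lower), 7 of which limma did not call. The 13 members whose later change was lower than the earlier became 5 to 16 without 1 library, and the 23 calls from E11.5 to PN became 16 to 25. The 4 NuGEN calls became 1 at q below 0.01, and the Clontech count stayed at 0. Members with a peak went from 31 of 95 to 4 of 23 within 5 kb of the start, a setting that needs a listed strand and leaves out peaks further into the gene. Of those 23 members, 7 held a peak in the wider window. Scaling to the upper quartile moved the median log2 change of all genes from 0.11 to -0.02 for the first step. Which cause lies behind the other shifts was not tested. With 3 libraries a stage and unknown depth, levels near 1 FPKM are the least certain.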
